A study of Mus musculus with 8 samples.

Results

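The mitochondrial ribosome is built from 2 subunits whose proteins are all encoded in the nucleus. The members described here are nuclear genes named for these proteins, Mrpl for the large and Mrps for the small subunit. The symbol alone does not place a protein in a subunit. Members are the protein-coding genes of RefSeq GRCm38.p6 whose symbol starts with Mrpl or Mrps followed by a digit. There were 78 of them among 21887 protein-coding genes, 49 Mrpl and 29 Mrps, on 17 chromosomes. Values came from CUT&Tag, which uses antibody-guided transposase to tag DNA at a histone modification, here acetylated lysine 27 (H3K27ac) or lysine 9 (H3K9ac) of histone H3. The cells were epithelial cells from small intestinal crypts of male C57BL/6J mice aged 9 weeks. The 4 groups of each mark were Fed -Tetra, Fast -Tetra, Fed +Tetra and Fast +Tetra, where Fast means 24 h without food and +Tetra means tetracycline for 21 days. No dose or route of tetracycline is given in the sources used here. Each group was 1 sample with 2 peak lists, numbered 1 and 2, which gave 16 lists; the labels do not say that the lists came from separate mice, so the spread between lists may be technical.

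Mitochondrial ribosomes translate the few proteins that mitochondrial DNA encodes, all of them subunits of the respiratory chain and ATP synthase. They descend from bacterial ribosomes, and tetracyclines, which bind the small subunit of bacterial ribosomes, can also slow mitochondrial translation. Part of their proteins have bacterial counterparts, and others exist only in mitochondria. H3K27ac is found at active promoters and enhancers, and H3K9ac mainly at active promoters. The peak lists therefore address whether the promoters of these genes kept their acetylation when tetracycline was given and when food was withdrawn.

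A gene was counted as marked in a list if at least 1 peak came to within 1 kb of its first or its last base. The lists gave a width in bp and a score for each peak. The score is the authors' own value, with no unit stated, and ranks peaks only within a list. Depth was unknown, and lists held 32392 to 68545 H3K27ac peaks and 17249 to 99050 H3K9ac peaks. Of 10 epithelial marker genes, all had H3K27ac peaks in every list and 9 or 10 had H3K9ac peaks. Of 10 immune markers, 2 to 6 were marked with H3K27ac and 1 to 4 with H3K9ac, and of 11 markers of stroma, vessel and muscle, 0 to 2 and 0 to 4. In a bulk list, a peak does not tell how many of the cells carry the mark.

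Promoters of 5 members are printed because the results below turn on them: a promoter shared by genes of both subunits (Mrps11, with Mrpl46), a promoter shared with a mitochondrial tRNA enzyme (Mrps12), a member whose H3K27ac peaks were wider at its other gene end than at this start (Mrpl12), a member whose marking differed between states (Mrps22), and a member marked at its start but at neither gene end (Mrps23). Each runs 5′ to 3′ on the gene's strand, from 250 bases before the start to 50 bases from it, as RefSeq GRCm38.p6 gives it. Capitals mark the letters of an NRF1 (GCGCA, any base, then GCGC), YY1 (ATGGCGG) or ETS (CCGGAAG) motif on either strand. NRF1, YY1 and ETS factors such as GABP are known regulators of nuclear genes for mitochondrial proteins.
Mrps11 (chr7:78782881-78783180, + strand): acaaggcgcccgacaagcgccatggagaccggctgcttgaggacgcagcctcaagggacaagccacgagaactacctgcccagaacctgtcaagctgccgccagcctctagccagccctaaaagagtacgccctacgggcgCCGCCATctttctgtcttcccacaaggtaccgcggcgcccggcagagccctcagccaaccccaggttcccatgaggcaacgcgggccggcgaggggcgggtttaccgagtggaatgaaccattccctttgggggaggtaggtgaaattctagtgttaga
Mrps12 (chr7:28741772-28742071, - strand): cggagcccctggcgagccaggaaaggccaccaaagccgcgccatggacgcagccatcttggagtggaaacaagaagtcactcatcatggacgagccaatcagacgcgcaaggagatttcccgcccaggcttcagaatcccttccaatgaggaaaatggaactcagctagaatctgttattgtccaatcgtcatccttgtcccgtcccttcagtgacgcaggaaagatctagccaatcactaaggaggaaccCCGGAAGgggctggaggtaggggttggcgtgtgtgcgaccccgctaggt
Mrpl12 (chr11:120484387-120484686, + strand): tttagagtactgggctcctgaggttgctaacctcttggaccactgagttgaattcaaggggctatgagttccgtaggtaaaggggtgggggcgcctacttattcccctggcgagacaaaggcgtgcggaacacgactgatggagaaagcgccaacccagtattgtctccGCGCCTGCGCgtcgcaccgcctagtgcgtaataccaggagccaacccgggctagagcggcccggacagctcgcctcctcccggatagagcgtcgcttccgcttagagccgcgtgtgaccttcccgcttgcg
Mrps22 (chr9:98601630-98601929, - strand): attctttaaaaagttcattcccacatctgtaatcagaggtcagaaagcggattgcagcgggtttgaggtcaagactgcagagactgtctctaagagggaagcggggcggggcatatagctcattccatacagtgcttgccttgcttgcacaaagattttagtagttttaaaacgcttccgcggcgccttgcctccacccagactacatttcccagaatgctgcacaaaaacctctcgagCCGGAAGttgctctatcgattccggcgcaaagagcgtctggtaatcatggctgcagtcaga
Mrps23 (chr11:88204138-88204437, + strand): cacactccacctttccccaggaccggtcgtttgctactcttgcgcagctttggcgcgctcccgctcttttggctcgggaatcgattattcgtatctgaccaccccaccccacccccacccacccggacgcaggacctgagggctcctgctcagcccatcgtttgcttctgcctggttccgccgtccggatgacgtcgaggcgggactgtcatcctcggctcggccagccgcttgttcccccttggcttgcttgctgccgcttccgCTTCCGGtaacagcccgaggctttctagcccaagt

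Each mark was found at most mitochondrial ribosomal protein genes in every list. Between 61 and 72 of the 78 members were marked with H3K27ac in a list (78.2% to 92.3%), against 42.9% to 50.7% of all protein-coding genes. H3K9ac marked 62 to 71 members (79.5% to 91.0%), against 41.1% to 53.2% of all genes. Both symbol groups took part: 28 of 49 Mrpl and 16 of 29 Mrps genes were marked with H3K27ac in all 8 lists, and the same counts held for H3K9ac. For each mark counted alone, 44 members (56.4%) were marked in all 8 lists, against 33.6% of all genes for H3K27ac and 21.1% for H3K9ac. In all 16 lists, 30 members (38.5%) were marked, against 17.6% of all genes.

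Members were marked less widely than 2 related gene groups. In all 8 H3K27ac lists, 78.9% of respiratory chain and ATP synthase genes and 71.1% of cytosolic ribosomal protein genes were marked, beside 56.4% of members, and in all 8 H3K9ac lists 61.8% and 68.4%, beside 56.4%. These shares are descriptions with no test. Of 76 genes for respiratory chain and ATP synthase subunits, 67 to 73 were marked in an H3K27ac list (88.2% to 96.1%) and 62 to 73 in an H3K9ac list (81.6% to 96.1%). Of 76 cytosolic ribosomal protein genes, 66 to 75 (86.8% to 98.7%) and 67 to 75 (88.2% to 98.7%) were marked. The 5 mitoribosome proteins with other symbols had a peak at 4 or 5 genes in each H3K27ac list and at all 5 in each H3K9ac list.

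The marking sat on start sites. The promoter table gave a start for 69 members. Averaged over the 8 lists, the start itself lay inside a peak in 84.8% of these members for H3K27ac and 85.0% for H3K9ac, against 44.2% and 40.1% of 17492 genes with a start. Where a member's start had a peak, the widest one reached from a median of -525 to 567 bp around the start for H3K27ac and from -476 to 598 bp for H3K9ac. At 2000 bp into the gene, 0.906% and 1.09% of members were still covered, against 6.55% and 4.96% of all genes. The share of members with a covered start was 86.2% ± 6.95 in -Tetra and 83.3% ± 8.07 in +Tetra lists for H3K27ac, and 85.5% ± 6.15 and 84.4% ± 4.16 for H3K9ac (SD, n = 4 lists each).

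**Figure D1:**
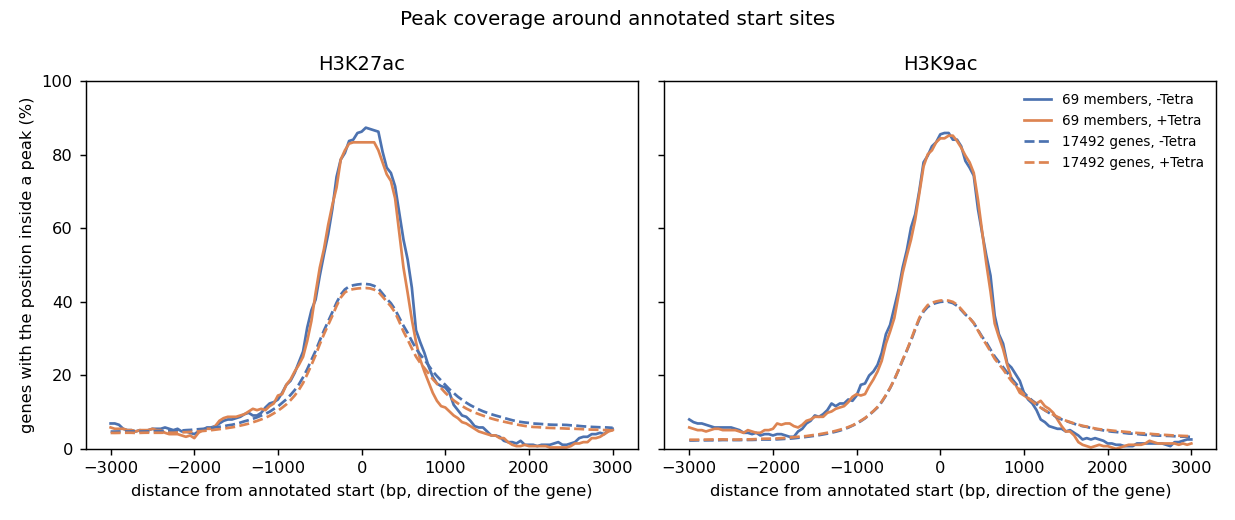
Share of genes (%) with each position inside a peak, from 3000 bp before to 3000 bp after the annotated start, for 69 members (solid) and 17492 genes (dashed); lines are means of 4 lists per tetracycline state. The solid lines rise to about 85% at the start in both states and lie below the dashed lines at 2000 bp into the gene.

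The few members with no peak in any list of a mark have an annotated start more than 1 kb inside the gene. Such a start was found for 6 members, of which Mrpl18 and Mrpl36 were marked at a gene end in 7 or 8 lists of each mark. No H3K27ac list had a peak at an end of Mrpl22, Mrps2 or Mrps23, and no H3K9ac list at Mrpl22 or Mrps23. Mrpl22 is a large subunit protein and Mrps2 a small subunit protein, both with bacterial counterparts, and Mrps23 is a small subunit protein of mitochondria. The annotated Mrps23 start lies 10282 bp inside the outer end of the gene (chr11:88194106-88211507), and there 7 of 8 H3K27ac lists and 7 of 8 H3K9ac lists had a peak, with median widths of 910 and 945 bp. The Mrps2 start lies 2115 bp inside its gene and was marked in 4 H3K27ac and 7 H3K9ac lists, and the Mrpl22 start lies 1621 bp inside and was marked in 3 and 5. Mrpl24, marked at a gene end in 1 list of each mark, was marked at its start in 6 H3K27ac and 4 H3K9ac lists. Counting the ends and the start together, each of the 69 members with a start had a peak in at least 1 list of each mark. Mrps10 and Mrpl4 were marked in few lists (1 and 3 for H3K27ac, 2 and 1 for H3K9ac); a start was used only for Mrps10, and it lay 310 bp from the gene's end.

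**Figure D2:**
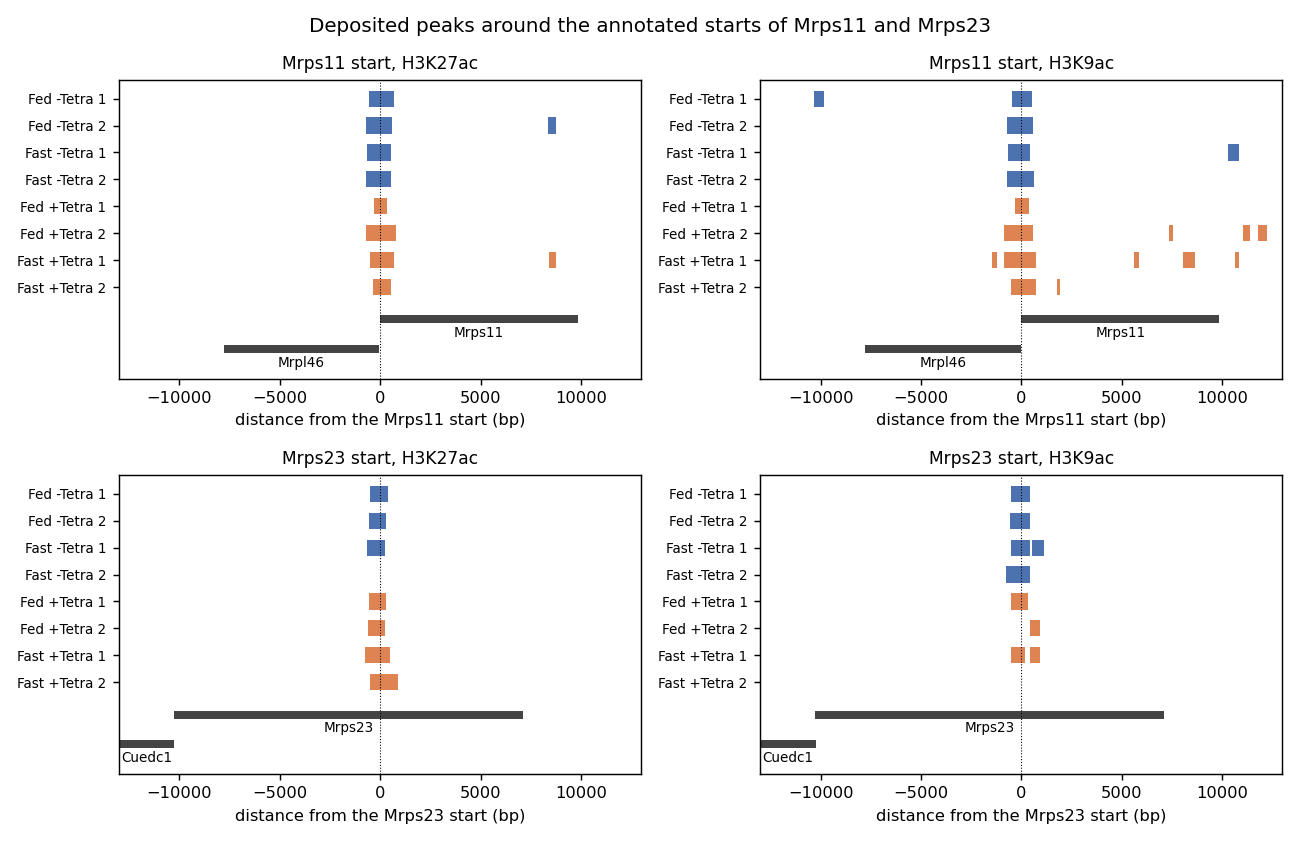
Every deposited peak (bars, blue for -Tetra and orange for +Tetra lists) around the annotated starts of Mrps11 and Mrps23, 1 row per list, with gene extents in dark grey. The Mrps11 start has 1 peak spanning it in all 8 lists of each mark, and the Mrps23 start, inside its gene model, has peaks in 7 of 8 lists of each mark.

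Member peaks were of moderate width. The median width at marked members lay between 1035 and 1275 bp in the 8 H3K27ac lists and between 1028 and 1328 bp in the 8 H3K9ac lists. For all marked genes the medians were 1184 to 1546 bp and 909 to 1328 bp, and the member median was the lower one in all 8 H3K27ac lists. Among the 30 members marked in all 16 lists, widths under the 2 marks ranked genes alike (Pearson's r = 0.86 and Spearman's rho = 0.91 across genes, which are not independent; 0.80 and 0.79 over 3853 genes). Peaks were narrow at Mrps33, a small subunit protein of mitochondria, with a median H3K27ac width of 815 bp and a range of 627 to 1002 bp, and at Mrpl33 and Mrpl11, with medians of 844.5 and 853 bp. The narrowest H3K9ac medians were 710 bp at Mrpl20, 754.5 bp at Mrps17 and 766.5 bp at Mrpl54.

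The widest peaks lay at members with close neighbours, and not all at the start. Mrpl12, a large subunit protein that also binds the mitochondrial RNA polymerase, had H3K27ac peaks of 5301 and 6199 bp in Fed -Tetra lists 1 and 2, 1965 and 6077 bp in Fast -Tetra, 2352 and 6239 bp in Fed +Tetra, and 2236 and 2468 bp in Fast +Tetra. The wide and narrow values were found in both tetracycline states, so the groups overlapped. In all 8 lists these peaks lay at the other end of the gene: within 1 kb of the start, the widest H3K27ac peaks measured 751, 2151, 844, 2508, 0, 1694, 1510 and 1917 bp in the same order (0 means no peak). The neighbour Hgs ends 653 bp before that start. Of 40 members with a start and an H3K27ac peak in all 8 lists, 34 had the same widest peak at the start in every list; for H3K9ac it was 27 of 36. Mrps18b, 72 bp from an end of Ppp1r10, had median widths of 3164 bp for H3K27ac and 4267 bp for H3K9ac, and Mrpl2, 17 bp from Klc4, had a median H3K27ac width of 3110 bp, in both cases at the start. For H3K9ac, Mrpl49 and Mrpl14 followed Mrps18b with 2402 and 2068 bp. A peak at such a gene cannot be assigned to 1 of the neighbours.

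**Figure D3:**
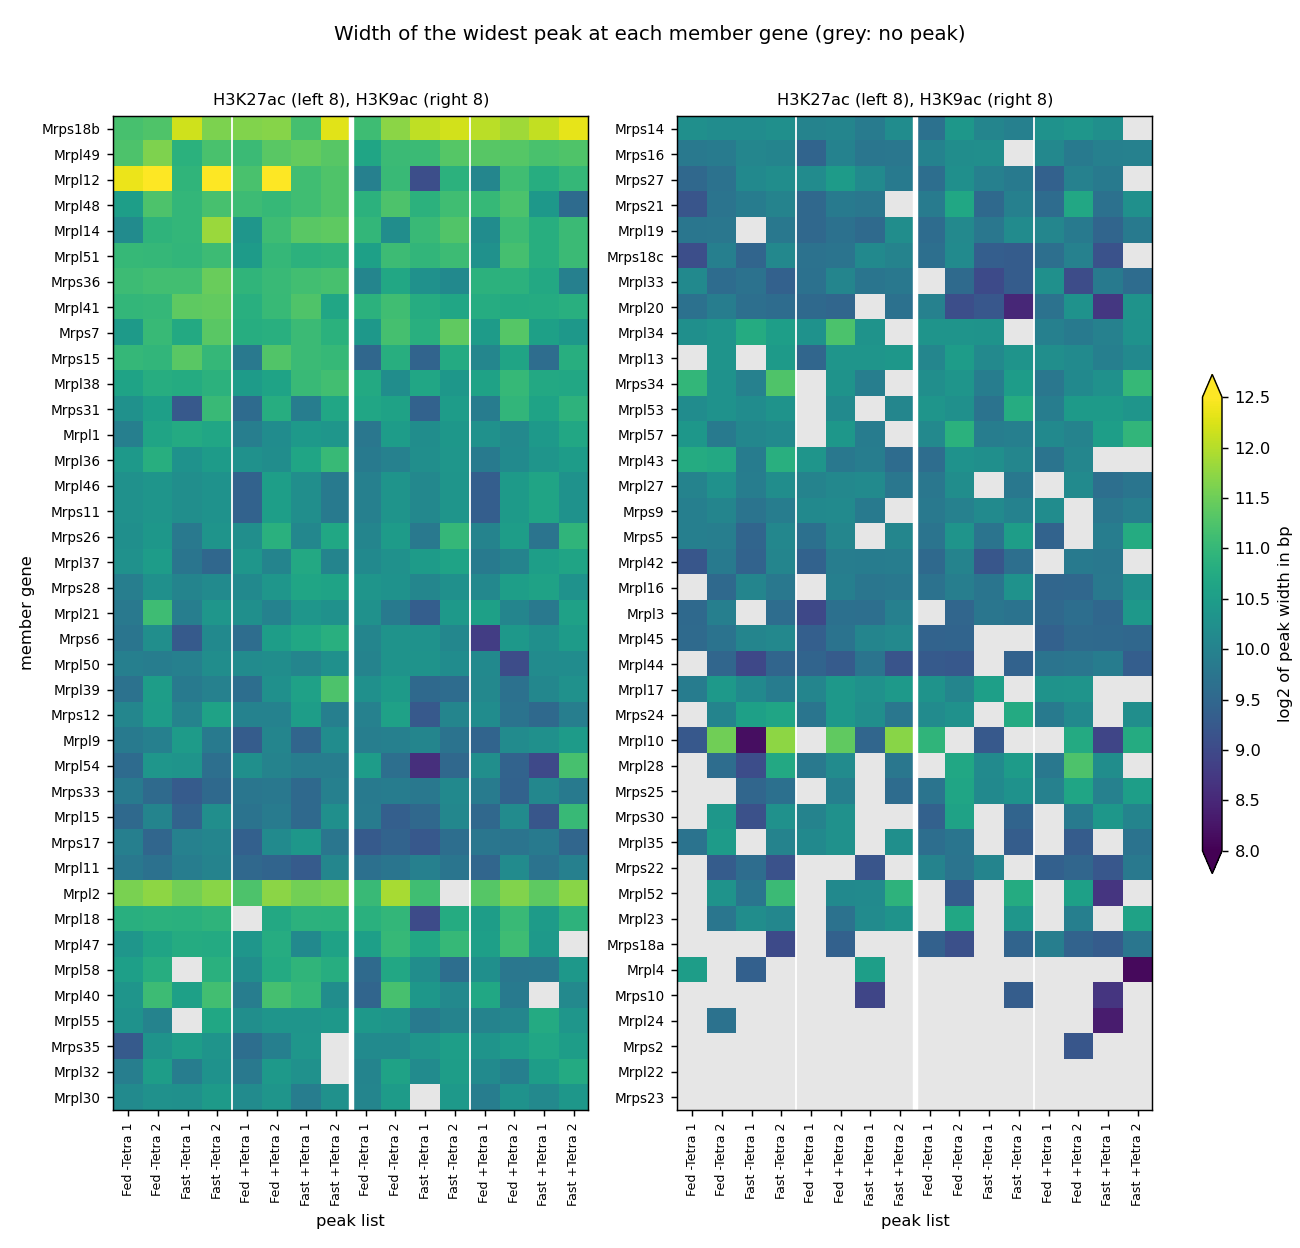
Width of the widest peak (log2 of bp, colour) at the gene ends of each of the 78 members in each of the 16 lists; grey means no peak, and members are sorted by the number of lists with a peak. The first 30 members have no grey cell, and grey cells further down are spread over both tetracycline states.

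Close neighbours were common among the members. Another protein-coding gene ended within 1 kb of 44 members (56.4%), against 24.8% of all genes. Mrps11 and Mrpl46, of the small and the large subunit, start 42 bp apart on opposite strands of chromosome 7, and their promoter windows share 141 bases. A single peak of 682 to 1469 bp (H3K27ac) or 651 to 1588 bp (H3K9ac) spanned both starts in all 16 lists, so these 2 members do not give separate values. Mrps12, the counterpart of the bacterial decoding protein S12, lies 136 bp from Sars2, the mitochondrial seryl-tRNA synthetase. Mrpl36 lies 21 bp from Ndufs6 and Mrpl47 302 bp from Ndufb5, both genes of respiratory complex I. Of the 44 members with another gene end within 1 kb, 28 (63.6%) were marked in all 8 H3K27ac lists and 26 (59.1%) in all 8 H3K9ac lists. The shares of all genes with such a neighbour were 55.5% and 37.9%. Of the 34 members with no other gene end within 1 kb, 16 (47.1%) and 18 (52.9%) were marked in all 8 lists of these marks. The shares of all genes without such a neighbour were 26.4% and 15.6%. The part of neighbours in the share of marked members was not tested.

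Promoter sequences of the 69 members with a start held some motifs at other shares than all promoters. The ETS motif was found in 25 (36.2%), against 11.9% of 17492 promoters of the same length. The NRF1 motif and the YY1 motif were each found in 13 (18.8%), against 6.60% and 5.41%. Related gene groups held some of them at like or higher shares: cytosolic ribosomal protein promoters held ETS in 39.3%, YY1 in 16.1% and NRF1 in 7.14% (56 promoters), and respiratory chain promoters 23.4%, 14.1% and 25% (64 promoters). At least 1 of the 3 was present in 41 members (59.4%), against 20.9%. The E-box CACGTG (7.25% against 7.90%) and the CCAAT box (39.1% against 39.0%) were found at about the shares of all promoters, and TATAAA was found in 5.80%, against 13.3%. Both strands were searched, and each printed promoter holds 1 match to NRF1, YY1 or ETS, so none overlap there. Median GC content was 58.3% in members and 56.3% in all promoters. In the printed promoters the Mrpl12 NRF1 match begins at position -81, and the Mrps12, Mrps22 and Mrps23 ETS matches begin at positions 1, -11 and 15 from the start. A match describes letters and does not show binding.

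No difference beyond the spread of lists was detectable between tetracycline states in the number of marked members. For H3K27ac, -Tetra lists marked 62, 71, 66 and 72 members (Fed 1, Fed 2, Fast 1, Fast 2) and +Tetra lists 61, 71, 66 and 62, or 67.75 ± 4.65 and 65.0 ± 4.55 (SD, n = 4 lists each). The groups overlapped, and the difference of -3.53 percentage points was smaller than the pooled SD between lists of a group, 6.92 points. For H3K9ac, -Tetra lists marked 67, 71, 62 and 66 members and +Tetra lists 65, 71, 68 and 64, or 66.5 ± 3.70 and 67.0 ± 3.16. That difference was 0.641 points, with a pooled SD of 4.15 points. Counts differed more by list number than by tetracycline state. Lists numbered 1 marked a mean of 63.75 members and lists numbered 2 a mean of 69.0 with H3K27ac. With H3K9ac these means were 65.5 and 68.0.

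**Figure D4:**
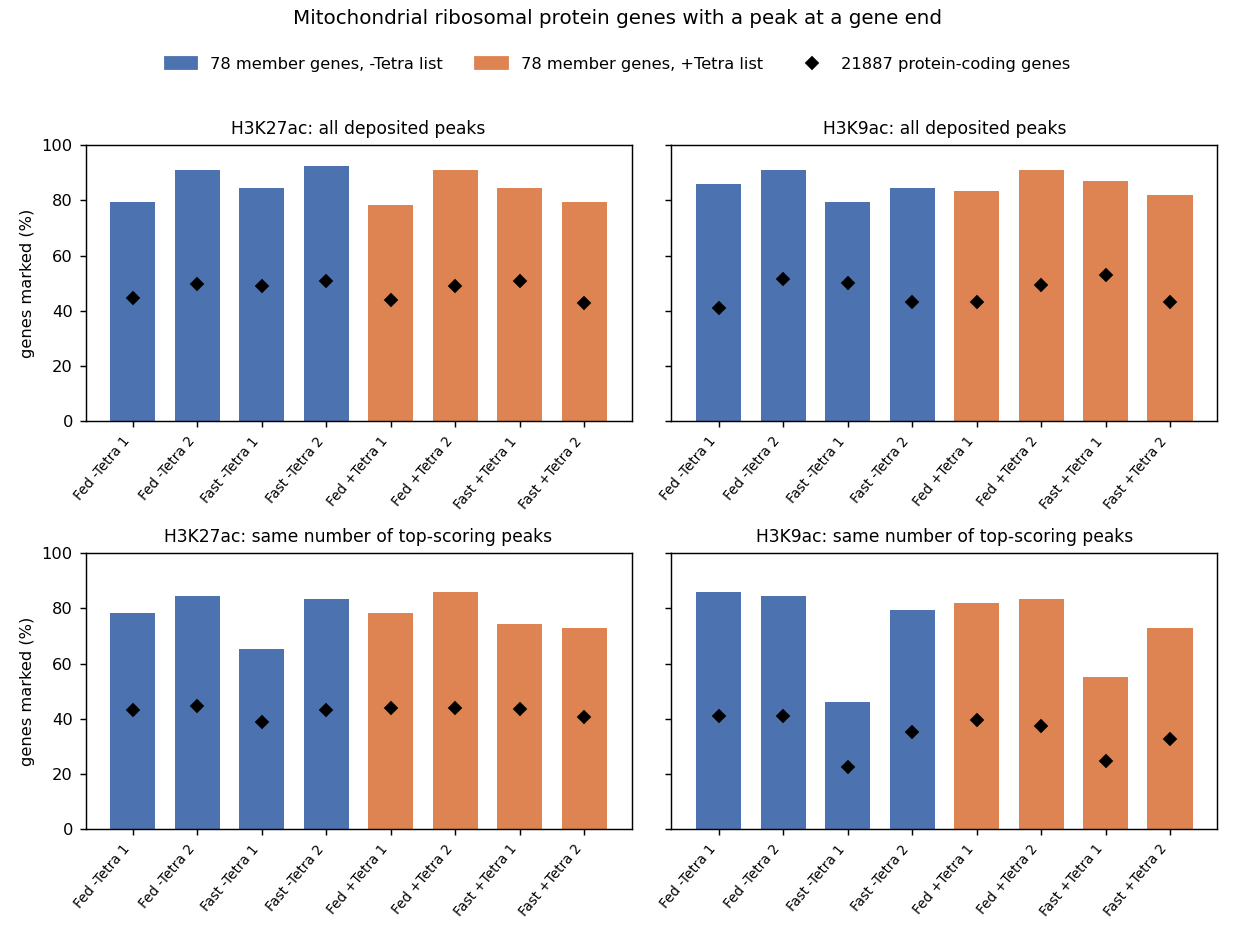
Share of the 78 members marked in each list (bars, blue -Tetra, orange +Tetra) and of 21887 protein-coding genes (diamonds), with all deposited peaks (top) and with each list reduced to an equal number of its highest-scoring peaks (bottom; 32392 for H3K27ac, 17249 for H3K9ac). Bars lie between 78.2% and 92.3% in the top panels, and in the bottom H3K9ac panel the Fast bars are the lower ones.

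With all peaks, 1.28% of members followed tetracycline in either direction for H3K27ac and 0% for H3K9ac, against 1.88% and 2.85% of all genes. The rule was at least 3 lists of one state and at most 1 of the other. All genes include 39.4% with no H3K27ac peak and 25.2% with no H3K9ac peak in any list, which cannot meet it. Of members these were 3.85% and 2.56%. Mrps22, a small subunit protein of mitochondria, had H3K27ac peaks of 638, 780 and 559 bp in Fed -Tetra 2, Fast -Tetra 1 and Fast -Tetra 2, and of 582 bp in Fast +Tetra 1, with none in the other lists. It was the only member marked in at least 3 lists of one tetracycline state and at most 1 of the other for H3K27ac, a pattern that 1.23% of all genes showed toward -Tetra and 0.644% toward +Tetra. With the upper part of each list by score, 5 members (6.41%) met it in either direction, against 2.09% of all genes. These Mrps22 peaks ranked low, at percentiles 1.7 to 15.9 of the marked genes of their lists. With H3K9ac, Mrps22 was marked in 7 of 8 lists, and no member met that pattern (1.29% of all genes toward -Tetra and 1.55% toward +Tetra). No member was marked in all 4 lists of one tetracycline state and none of the other with either mark (0.0959% of all genes toward -Tetra and 0.00457% toward +Tetra for H3K27ac, 0.0411% and 0.0457% for H3K9ac).

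Peak width was tested at the 44 members of each mark that had a peak in all 8 lists, in limma fits over 7362 H3K27ac and 4626 H3K9ac genes with widths centred per list. No member passed an adjusted p of 0.05 for tetracycline averaged over feeding states with either mark, nor did any other gene (0% called in each fit). At an unadjusted p under 0.05 there were 3 of 44 members for H3K27ac and 0 for H3K9ac, against 4.01% and 3.65% of all tested genes. The median member difference, +Tetra minus -Tetra, was 0.029 (log2 width) for H3K27ac and 0.035 for H3K9ac, beside 0.011 and -0.0027 over all tested genes. Within Fast lists alone, 5 of 44 members (11.4%) had an unadjusted p under 0.05 for H3K27ac, against 4.25% of all tested genes: Mrps6, Mrpl39, Mrpl37, Mrps28 and Mrpl36, all wider with tetracycline. Their lowest limma adjusted p was 0.86, while 2 genes that are no members, Frmd8 and Mbnl2, were called as narrower (0.0272% of tested genes, limma adjusted p = 0.034). Within Fed lists it was 1 of 44 members, against 3.45%, and for H3K9ac 2 members within Fast (5.4%) and 0 within Fed (2.18%), with none called. The Mrpl36 H3K27ac widths at the gene ends were 1258 and 1419 bp in Fast -Tetra and 1594 and 2088 bp in Fast +Tetra lists. Within 1 kb of its start they were 1258 and 1327 bp, and 1594 and 1357 bp. In simulated widths, 61 of 100 genes planted with a log2 difference of 1 were recovered for H3K27ac and 50 of 100 for H3K9ac, so smaller changes could be missed.

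The largest tetracycline differences in either direction were these. Mrps6, a small subunit protein with a bacterial counterpart, had H3K27ac widths of 862, 1189, 619 and 1123 bp in -Tetra lists (Fed 1, Fed 2, Fast 1, Fast 2) and 779, 1447, 1636 and 1834 bp in +Tetra lists. The 2 Fast +Tetra values were the highest and the Fed values overlapped (log2 difference 0.61, SE 0.20, limma adjusted p = 0.999). Mrps28 widths of 974, 1227, 1051 and 1135 bp in -Tetra and 1128, 1313, 1604 and 1567 bp in +Tetra gave 0.39 (SE 0.15, limma adjusted p = 0.999). Once centred per list, all 4 +Tetra values of Mrps28 lay above all 4 -Tetra values, which 1.05% of tested genes also showed; 0.842% showed the reverse and no member did. For H3K9ac no member separated in either direction (1.02% and 1.1% of tested genes). Mrpl39 gave 0.47 and, in the other direction, Mrpl43, Mrpl12 and Mrps15 gave -0.59, -0.52 and -0.24, with the same adjusted p. For H3K9ac, Mrpl20, Mrpl12 and Mrpl54 gave 0.53, 0.48 and 0.37, and Mrpl48, Mrpl50 and Mrps7 gave -0.51, -0.34 and -0.30, again with an adjusted p of 0.999. Mrpl12 thus had estimates of opposite sign under the 2 marks, neither of which passed the test, and its H3K27ac widths are those of the other gene end. In some lists the widest H3K9ac peak of Mrpl12, Mrpl20 and Mrpl48 at the gene ends was not the widest at an annotated start.

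**Figure D5:**
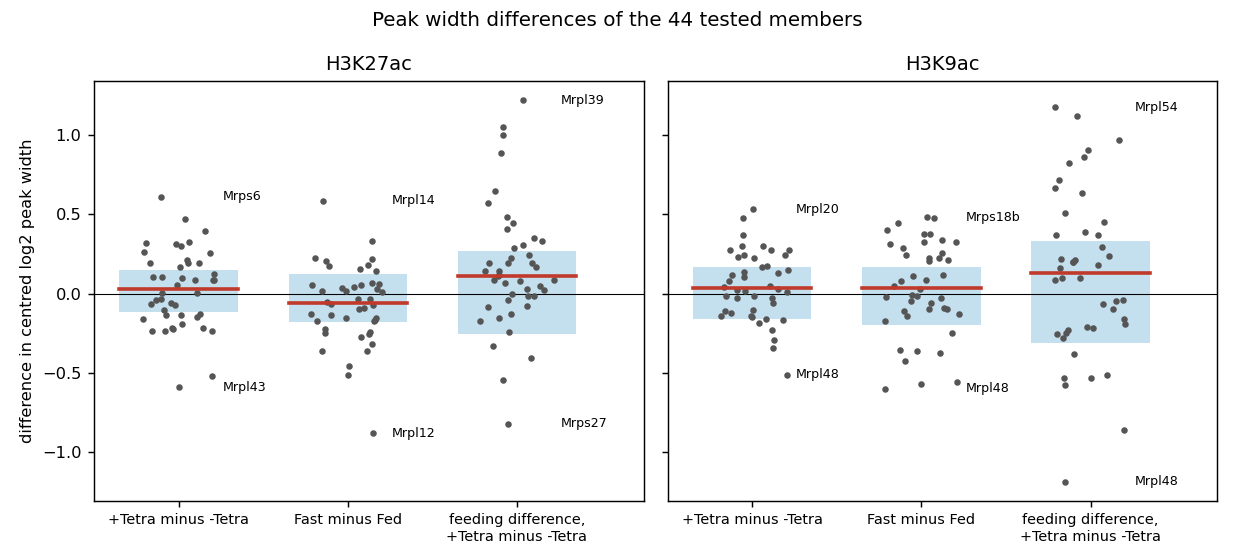
Difference in centred log2 peak width for each of the 44 tested members (points) under 3 contrasts; red lines are member medians and blue boxes the quartiles of all tested genes (7362 for H3K27ac, 4626 for H3K9ac), with the lowest and highest member named. Member medians lie between -0.059 and 0.13, inside every blue box, and no point passed the test.

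Of the members named whatever their values, Mrps7, Mrps12 and Mrpl12 were tested for width and gave no called tetracycline difference. Mrpl3 and Mrps5 were not marked in all 8 lists of either mark, so their widths were not tested. Mrps12 had H3K27ac widths of 1070, 1430, 1033 and 1551 bp in -Tetra and 1024, 1025, 1446 and 982 bp in +Tetra lists, and its difference was -0.13 (SE 0.21, limma adjusted p = 0.999). Mrps7, a small subunit protein with a bacterial counterpart, gave 0.056 for H3K27ac. Mrpl3, which lies near the peptidyl transferase centre, was marked in 7 of 8 lists of each mark and lacked only Fast -Tetra 1 for H3K27ac and Fed -Tetra 1 for H3K9ac. Mrps5 was also marked in 7 of 8 lists of each mark and lacked Fast +Tetra 1 and Fed +Tetra 2. Of members missing from exactly 1 H3K27ac list, 5 of 15 were missing from Fast +Tetra 2, the list that 38.5% of all such genes were missing from.

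Ranks of member peaks by score differed between tetracycline states in opposite directions under the 2 marks, by an amount that depended on the genes ranked. Over the 3853 genes marked in all 16 lists, the median H3K27ac score percentile of the 30 members was 39.8 to 45.3 in -Tetra lists (mean 41.7) and 29.8 to 40.5 in +Tetra lists (mean 34.8). For H3K9ac it was 49.6 to 58.5 in -Tetra (mean 53.3) and 52.6 to 61.9 in +Tetra lists (mean 56.2). Over the 7362 genes marked in all 8 H3K27ac lists, the 44 members lay at 38.5 to 45.3 in -Tetra (mean 42.0) and 32.0 to 41.5 in +Tetra lists (mean 37.5). Over the 4626 genes marked in all 8 H3K9ac lists, the H3K9ac values were 45.6, 45.8, 43.1 and 53.2 in -Tetra (mean 47.0) and 54.8, 53.2, 59.9 and 52.9 in +Tetra lists (mean 55.2; Fed 1, Fed 2, Fast 1, Fast 2 in each state). There 3 of the 4 -Tetra lists lay below every +Tetra list, and Fast -Tetra 2 lay within their range. The ranges of the tetracycline states overlapped in each set, and a score over members was not tested. By feeding, the means in the first set were 40.3 in Fast and 36.2 in Fed lists for H3K27ac, and 55.8 and 53.7 for H3K9ac. In the sets of 8 lists they were 40.8 and 38.7 for H3K27ac, and 52.3 and 49.9 for H3K9ac. The ranges of the feeding states also overlapped in each set. The member median was below the middle of the ranked genes in all 8 H3K27ac lists of both sets, and above it in 7 of 8 H3K9ac lists of the first set and 5 of 8 of the second.

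With all peaks, Fed and Fast lists overlapped in the number of marked members under both marks. For H3K27ac, Fed lists marked 66.25 ± 5.50 members and Fast lists 66.5 ± 4.12 (SD, n = 4 lists each). For H3K9ac the values were 68.5 ± 3.0 and 65.0 ± 2.58, a difference of -4.49 percentage points beside a pooled SD of 4.15 points. That difference was slightly larger than the pooled SD, with Fed lists at 65 to 71 members and Fast lists at 62 to 68.

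The H3K9ac comparison changed when each list was reduced to an equal number of peaks. Fast lists numbered 1 held 99050 and 97764 H3K9ac peaks, and the Fed -Tetra list numbered 1 held 17249. The reduction kept every peak of that Fed list and the highest-scoring 17.4% and 17.6% of the 2 Fast lists, so list length and score changed together. With the 17249 highest-scoring peaks of each list, Fed lists marked 67, 66, 64 and 65 members and Fast lists 36, 62, 43 and 57 (-Tetra 1, -Tetra 2, +Tetra 1, +Tetra 2), or 84.0% and 63.5% of members. All 4 Fast lists then lay below all 4 Fed lists, and the Fast lists numbered 1 were the lowest. All genes moved the same way, from 39.8% in Fed to 28.8% in Fast lists. Under this count 8 members (10.3%) were marked in at least 3 Fed lists and at most 1 Fast list, against 6.57% of all genes, and no member the reverse (0.393%): Mrpl17, Mrpl18, Mrpl28, Mrpl43, Mrpl54, Mrpl58, Mrps16 and Mrps22. With an equal number of H3K27ac peaks, 1 member met the same rule toward Fast (1.03% of all genes) and none toward Fed (1.59%), and by tetracycline 1 met it in each direction (1.1% toward +Tetra, 0.681% toward -Tetra). By tetracycline with H3K9ac, 2 members met it in each direction (1.22% and 2.02%). The part of peak number in these differences was not tested.

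With all peaks, 2.56% of members followed feeding by the same rule for H3K27ac and 1.28% for H3K9ac, against 2.18% and 3.64% of all genes. Mrps22 and Mrps25, both small subunit proteins of mitochondria, were marked with H3K27ac in 3 Fast lists and 1 Fed list (1.47% of all genes toward Fast, 0.708% toward Fed). The Mrps25 peaks were 715 and 805 bp in Fast -Tetra 1 and 2, 769 bp in Fast +Tetra 2 and 978 bp in Fed +Tetra 2, and with H3K9ac the gene was marked in all 8 lists. Mrpl17, a large subunit protein with a bacterial counterpart, had H3K9ac peaks of 1269, 1053, 1277 and 1293 bp in the 4 Fed lists and of 1480 bp in Fast -Tetra 1, with none in the other Fast lists (1.59% of all genes toward Fed, 2.05% toward Fast). With H3K27ac it was marked in all 8 lists. No member was marked in all 4 lists of one feeding state and none of the other (0.0959% of all genes toward Fast and 0.0137% toward Fed for H3K27ac, 0.0777% and 0.0411% for H3K9ac).

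No member passed the width test for feeding with either mark, and no other gene did (0% called in each fit). At an unadjusted p under 0.05 there were 2 of 44 members for each mark, against 6.9% of all genes for H3K27ac and 6.05% for H3K9ac. The median member difference, Fast minus Fed, was -0.059 for H3K27ac and 0.038 for H3K9ac, beside -0.034 and -0.012 over all tested genes. Within -Tetra lists alone, 3 of 44 members of each mark had an unadjusted p under 0.05, against 6.33% (H3K27ac) and 4.84% (H3K9ac) of tested genes, and within +Tetra lists 1 of 44 for each mark, against 4.31% and 4.67%. No gene was called in these 4 contrasts (0%). Mrpl12 had the lowest H3K27ac value, -0.88 (SE 0.33, limma adjusted p = 0.67), and Mrpl14, a large subunit protein with a bacterial counterpart, the highest, 0.58 (SE 0.20, limma adjusted p = 0.65). Neither sign held when the base pairs covered within 1 kb of the gene ends replaced the widest peak: Mrpl12 then gave 0.15 and Mrpl14 -0.023. The widest Mrpl14 peak, like that of Mrpl12, lay away from the start in some lists. Mrpl43 and Mrpl37 gave -0.51 and -0.46, and Mrpl45 and Mrpl39 gave 0.33 and 0.23.

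Mrpl45, which lies at the tunnel exit and anchors the ribosome to the inner membrane, had H3K27ac widths of 748, 843, 658 and 837 bp in Fed lists (-Tetra 1, -Tetra 2, +Tetra 1, +Tetra 2) and 1060, 1095, 1059 and 1107 bp in Fast lists. All Fast values lay above all Fed values, also once centred, which 1.77% of tested genes showed (2.5% the reverse, and no member; limma adjusted p = 0.71). With H3K9ac, Mrpl45 peaks were missing from both Fast -Tetra lists and measured 675 to 748 bp in the other 6. For H3K9ac, centred widths of Mrpl16, Mrpl36 and Mrpl37 lay above all Fed values in every Fast list. This held for 3 of 44 members and 2.23% of tested genes, and the reverse for 0 members and 1.41%. Within 1 kb of the start, the widest Mrpl16 peak was 671 bp in Fast -Tetra 1 and 715 to 970 bp in Fed lists. The widest Mrpl36 peak there was 689 bp in Fast +Tetra 1 and 838 to 1010 bp in Fed lists. Neither gene separated by feeding at the start. Mrpl37 widths were 1125, 1247, 930 and 1037 bp in Fed and 1410, 1558, 1477 and 1573 bp in Fast lists, a log2 difference of 0.48 (SE 0.20, limma adjusted p = 0.81). With H3K27ac the Mrpl37 estimate had the opposite sign. Mrps18b and Mrpl14 gave 0.48 and 0.45 for H3K9ac, and Mrpl48, Mrpl20 and Mrpl18 gave -0.60, -0.57 and -0.56. In Fast +Tetra 2, the widest Mrpl48 peak was 758 bp at the gene ends and 1272 bp at its annotated starts. In Fast -Tetra 1, Mrpl18 had 520 bp at the gene ends and 1472 bp at the start. In Fast -Tetra 2, Mrpl20 had 364 bp at the gene ends and no peak at the start.

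The test of whether the feeding difference itself depended on tetracycline called no member and no other gene (0% called in each fit). At an unadjusted p under 0.05 there were 4 of 44 members for H3K27ac and 1 for H3K9ac, against 3.57% and 3.55% of all genes. The member medians were 0.11 and 0.13, beside 0.016 and 0.011 over all tested genes. Mrpl39, a large subunit protein of mitochondria, had the highest H3K27ac value, with widths of 830 and 1446 bp in Fed -Tetra, 916 and 1006 bp in Fast -Tetra, 793 and 1220 bp in Fed +Tetra, and 1521 and 2433 bp in Fast +Tetra (1.22, SE 0.38, limma adjusted p = 0.998). The 2 Fast +Tetra values of Mrpl39 were the highest of its 8 values. Mrps6 and Mrpl37 gave 1.05 and 1.002, and Mrps27, Mrps18b and Mrpl47 gave -0.82, -0.54 and -0.41. For H3K9ac, Mrpl54, Mrpl57 and Mrpl39 gave 1.17, 1.12 and 0.97, and Mrpl48, Mrps7 and Mrps18b gave -1.19, -0.86 and -0.57 (limma adjusted p = 0.997). The Mrpl48 width in Fast +Tetra 2 was 758 bp at the gene ends, beside 1272 bp at its annotated starts.

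The number of lists with a peak was the same under both marks for 39 of the 78 members (46.2% of all genes) and differed by at least 2 lists for 17 (21.8%, against 23.8%). H3K9ac was found in more lists at 8 of these (11.2% of all genes). Mrps18a was marked in 2 H3K27ac lists and 7 H3K9ac lists, Mrps25 in 4 and 8, and Mrps22 in 4 and 7, while Mrpl13, Mrpl16, Mrpl53, Mrpl57 and Mrps34 were marked in 6 and 8. H3K27ac was found in more lists at 9 (12.6% of all genes). Mrpl17 was marked in 8 H3K27ac and 5 H3K9ac lists, Mrpl27, Mrpl42, Mrpl43 and Mrpl45 in 8 and 6, Mrpl10 in 7 and 5, Mrpl23 and Mrpl52 in 6 and 4, and Mrpl4 in 3 and 1.

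Mrpl10 widths at the gene ends followed the list number: H3K27ac peaks were 602, 289, 0 and 719 bp in lists numbered 1 and 2928, 3417, 2691 and 3346 bp in lists numbered 2 (first Fed and Fast without tetracycline, then Fed and Fast with it; 0 means no peak). The peaks of lists numbered 2 lay at the end away from the start. Within 1 kb of the start, widths were 602, 0, 0 and 719 bp in lists numbered 1 and 0, 552, 764 and 0 bp in lists numbered 2, so the pattern was not found there. Mrpl23 and Mrpl52 had no peak of either mark in the Fed lists numbered 1.

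Single genes among the other genes of mitochondrial translation differed by tetracycline state in both directions with H3K27ac, and only toward +Tetra with H3K9ac. Of 11 mitochondrial translation factors, 8 to 11 were marked in an H3K27ac list and 7 to 11 in an H3K9ac list; of 20 mitochondrial aminoacyl-tRNA enzymes, 12 to 19 and 14 to 19; and of 20 assembly and rRNA factors, 14 to 18 and 15 to 18. Toward -Tetra, Eral1 (an rRNA chaperone, H3K27ac in all 4 -Tetra and 1 +Tetra list), Mrm3 (an rRNA methyltransferase, 3 and 1) and Vars2 (valyl-tRNA synthetase, 3 and 1) met the rule of at least 3 lists against at most 1. Toward +Tetra, Gadd45gip1 (a large subunit protein) did so with H3K27ac, and Fastkd2, Mrm2 and Ngrn, all needed for mitochondrial rRNA, with H3K9ac. The last 3 are among the 20 assembly and rRNA factors, of which none met it toward -Tetra with H3K9ac. With H3K27ac, 2 of the 20 met it toward -Tetra and none toward +Tetra. Of all genes, 1.23% met the rule toward -Tetra and 0.644% toward +Tetra with H3K27ac, and 1.29% and 1.55% with H3K9ac. These lists were not tested as sets. Tsfm, the elongation factor Ts, had H3K9ac peaks of 695, 1075, 464 and 650 bp in the 4 Fed lists. It had none in the 4 Fast lists, a split that 0.0411% of all genes showed. Gatb met the rule toward Fed with H3K9ac. Mterf4 met it toward Fed with H3K27ac, Vars2 and Gadd45gip1 too, and Mrm3 toward Fast. With H3K9ac, Fastkd2 met it toward Fast. By feeding, 1.47% of all genes met it toward Fast and 0.708% toward Fed with H3K27ac, and 2.05% and 1.59% with H3K9ac.

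Among respiratory chain genes, Uqcrq met the rule toward Fed with H3K9ac (1.59% of all genes). Of the cytosolic ribosomal protein genes, Rpl17 and Rpl6 met it toward Fast with H3K27ac (1.47% of all genes). Of 18 mitochondrial stress response genes, only Chac1 met it (H3K9ac, toward Fast, as 2.05% of all genes did). Of 13 biogenesis regulators, only Yy1 did (H3K9ac, 4 Fed lists and 1 Fast list, with 1.59% of all genes toward Fed). Among markers of other cells, Ptprc had H3K27ac peaks in the 4 Fast lists but in none of the Fed lists (0.0959% of all genes). Vim had H3K27ac peaks in 4 -Tetra lists and 1 +Tetra list (1.23% of all genes met the rule toward -Tetra). The part of other cells in the member values was not tested.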

How the data were processed

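The authors deposited 2 peak lists for each of 8 CUT&Tag samples; the columns are a score, a chromosome, a start, an end and a peak name that starts with MACS. Scores were used as deposited, at least 50 in every list, with no unit stated. The submitters' processing notes name FastQC, Bowtie, SAMtools and the build mm10; caller settings are not given in the sources used here, and the list names call the data downsampled. Depth is unknown. IgG libraries were not analysed here.

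Peaks on chromosomes 1 to 19, X and Y were joined to RefSeq GRCm38.p6 genes. Marking was counted per list without a test. Log2 width of the widest peak at genes marked in all 8 lists of a mark was centred on the list median over tested genes and fitted with limma 3.58.1 (R 4.3.3) as 4 group means, with Benjamini-Hochberg adjustment over all tested genes and a threshold of 0.05. Lists numbered 1 and 2, the numbers being in the list names only, are the replicates, and p-values measure only their spread. Before centring, the median over all tested genes differed by 0.16 (log2) between Fast and Fed H3K27ac lists and by 0.27 and 0.36 between lists numbered 2 and 1. Promoters came from RefSeq GRCm38.p6 (69 of 78 members matched). The width fit was tested on simulated data with 200 planted genes per mark. Tables and figures used Python 3.11.15, numpy 2.4.6, pandas 2.3.3 and matplotlib 3.10.9.

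Named members are those marked in at least 3 of 4 lists of a state and at most 1 of the other (up to 10), those marked in none of the 8 lists of a mark, the 3 highest and 3 lowest width differences per contrast, the 3 widest and 3 narrowest, and Mrps5, Mrps7, Mrps12, Mrpl3 and Mrpl12; up to 3 genes of each other list follow the first rule. Of these other genes, 2 are not reported here. Members named for their position, neighbours, list number, difference between marks, non-overlapping widths or the equal-peak count, and contrasts within 1 state, were chosen after their values were seen. Members and lists were chosen with earlier results of these data known. Alternatives covered the peaks used, window, overlap, width measure, scaling, tested genes, list numbers and fit.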

Additional observations from a re-analysis of the deposited data

Results flagged for a closer look

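In 24 sets of 4 lists (members marked, median member width and median member score percentile, by tetracycline or feeding state), 3 had a list far from the other 3. For a single set, chance gives about 1 in 20. The sets reuse the same lists, and the Fast +Tetra 2 percentile was flagged in both a +Tetra and a Fast set, so the flags are not independent. Fed +Tetra 1 had a median member H3K27ac width of 1035 bp, where the other +Tetra lists had 1199, 1220 and 1220 bp. Fast +Tetra 2 had a median member H3K27ac score percentile of 36.1, where the other +Tetra lists lay at 44.1, 44.2 and 44.6 and the other Fast lists at 44.5, 44.6 and 44.8. The same Fast +Tetra 2 list had the fewest genes with H3K27ac peaks, 42.9% of all protein-coding genes.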

How the results depend on the processing

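Other settings for peaks, window, overlap, width, scaling, tested genes and fit were compared. Of 192 values, 173 stayed within the spread between lists, within 1.5 times the count, or at 0 members called. The 192 include the counts of members passing the width test, which were 0 under every setting. Among the other values, the share that stayed was lower. No member passed the width test in any of the 14 alternatives that gave one; the lowest adjusted p was 0.11 (Mrpl21, H3K27ac feeding, window of 2.5 kb). Using the same number of top-scoring peaks moved the feeding difference in members marked to -7.69 percentage points for H3K27ac and -20.5 for H3K9ac. Members in at least 3 lists of a state and at most 1 of the other, for tetracycline with H3K27ac, became 5 (6.41%, all genes 2.09%) with the upper part of each list by score, 2 (2.56%, 1.78%) with the same number of peaks, 2 (2.56%, 1.98%) with the 2.5 kb window and 3 (4.35%, 1.82%) at start sites; with H3K9ac they became 3 (3.85%, 3.23%) and 4 (5.13%, 3.24%) under the first 2 settings. For feeding with H3K27ac they became 4 (5.13%, 2.53%), 1 (1.28%, 2.62%) and, at start sites, 4 (5.80%, 1.94%); with H3K9ac they became 3 (3.85%, 4.15%) and 8 (10.3%, 6.96%), 0 (all genes 5.01%) with the 2.5 kb window, 3 (4.35%, 3.6%) at start sites and 2 (2.56%, 3.8%) with 0.5 of the peak inside the window. The median member width difference became -0.063 for tetracycline with H3K27ac (upper part by score), 0.10 for feeding with H3K27ac without centring (all genes 0.13) and 0.19 for feeding with H3K9ac when unmarked lists counted as 0 (all genes 0.24). Leaving out the lists of 1 number gave a range of -0.0090 to 0.14 for tetracycline and H3K27ac width (0.14 without lists numbered 2) and -0.10 to 0.062 for the interaction and H3K9ac width. Single members changed sign, none past the test: with covered bp, Mrpl12 gave 0.064 for tetracycline and 0.15 for feeding (H3K27ac), Mrpl14 -0.023 for feeding (H3K27ac), and Mrpl54 -0.25 for tetracycline and -1.82 for the interaction (H3K9ac); with 0.5 of the peak inside the window, Mrpl12 gave 0.41 and 0.37 and Mrpl14 -0.26; at start sites Mrpl14 gave -0.20; without lists numbered 1, Mrps15 gave 0.21 for tetracycline and Mrps18b 0.34 for the interaction (H3K27ac; without lists numbered 2 -0.69 and -1.42); without lists numbered 2, Mrpl20 gave -0.44 for tetracycline (H3K9ac; 1.496 without lists numbered 1). The causes were not tested. Lists of the same number deviated together with correlations of 0.085 to 0.24 for H3K27ac and 0.10 to 0.16 for H3K9ac over 6 pairs of groups, and a replicate block on the list number left 0 members called, with median tetracycline differences of 0.029 and 0.035.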
